A study of Mus musculus with 34 samples.

Results

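The 6 libraries described here measure what dexamethasone (Dex), a synthetic glucocorticoid, still did to the transcriptome of cells whose only intended glucocorticoid receptor (GR, gene Nr3c1) was the form labelled Y551A-Dim. They were taken by their labels, 3 treated with 100 nM Dex for 2 h and 3 with the ethanol vehicle (EtOH), out of 34 libraries in the series. The cells derive from the mouse mammary adenocarcinoma line 3617, lack their own GR and stably carry a GFP-tagged mouse GR, in a line named D4-GFP-mGR-Y551A-Dim. All groups were kept for at least 24 h in medium with 10% serum stripped of steroids by charcoal and dextran and 5 µg/ml tetracycline. Cells of Drosophila (S2, 5%) were mixed in at harvest as a spike-in, which was not used here. The labels explain neither "Dim" nor what tetracycline controls, and each receptor form comes as a single line, so receptor form and cell line cannot be told apart. Y551A-Dim is set beside 6 WT and 6 Y551A libraries (3 Dex and 3 EtOH each) only where its response differed.

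GR is a nuclear receptor that waits in a chaperone complex in the cytoplasm, enters the nucleus when it binds hormone, and binds palindromic DNA elements built of the hexamers AGAACA and TGTTCT. From there it raises the transcription of genes such as Per1, Tsc22d3, Fkbp5 and Sgk1 within hours. It also lowers many growth factor, AP-1 and inflammatory genes, among them chemokines. In mammary cells early targets include clock genes, feedback inhibitors of growth factor signalling and genes of salt and lipid handling.

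Each Y551A-Dim library held between 50542979 and 70124595 counted reads, within the range of the 18 libraries fitted together (44998213 to 70124595). A gene was called when edgeR's quasi-likelihood test gave a Benjamini-Hochberg adjusted p below 0.05 over the 16140 genes tested, and "rose" and "fell" are used only of called genes. Levels are normalised CPM (reads of a gene per 1e6 reads of the library, after scaling), changes are log2 fold changes of Dex over EtOH with their SE (3 against 3 libraries), and values per library follow the order of replicates 1, 2 and 3. The labels speak only of triplicates, so p-values measure the spread between libraries, which may be technical. That spread was estimated over all 18 libraries together. Pairs of Dex libraries differed by a chi-square per gene of 14.584 to 27.459 in Y551A-Dim, 4.312 to 17.926 in Y551A and 2.871 to 6.011 in WT. A spread shared with more even lines can make SE and p-values too small for Y551A-Dim. In bulk RNA fewer cells with a transcript and less transcript per cell cannot be told apart. Of 15 luminal epithelial markers 4 were expressed enough to be tested, and Epcam, Cldn3, Cldn4, Cldn7, Elf3 and Foxa1 were at 0 counts in all 6 libraries. Of 10 basal epithelial markers 4 were tested and 0 were at 0 counts. Of 17 fibroblast markers 13 were tested and 3 were at 0 counts, and Vim of this list stood between 4681 and 5222 CPM. Of 16 immune genes 6 were tested and 6 were at 0 counts, among them Cd3e, Ms4a1, Adgre1 and Tyrobp. The immune list summed to between 8.18 and 16.88 CPM, highest in Dex replicate 1.

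The transcript of the receptor itself was well expressed in all 6 libraries and rose slightly with Dex. Nr3c1 (mm10 chromosome 18, 39410545 to 39519421) stood at 307, 314 and 309 CPM in EtOH and at 357, 354 and 356 in Dex. All 3 Dex libraries lay above all 3 EtOH libraries, a rise of 0.20 ± 0.031 (edgeR adjusted p = 0.000415) that was called without each library in turn. The change was 0.26 ± 0.043 above that in WT, a called difference. Nr3c1 also rose in Y551A, and the difference between Y551A-Dim and Y551A was not called. In EtOH its mean was 310.2 ± 3.67 CPM (SD, n = 3), against 280.0 ± 5.8 in WT and 345.2 ± 6.18 in Y551A. The counts do not separate the introduced receptor from remnants of the original gene.

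Dex changed 176 genes in Y551A-Dim, 1.09% of those tested. Of these 145 rose (0.898%) and 31 fell (0.192%). The changes were mostly small: 35 of the genes that rose and 0 of those that fell moved at least 1.5-fold. In WT the same test called 549 genes (3.4%) and in Y551A 297 (1.84%). The count depended on single libraries. It was 87 without Dex replicate 1, 296 without Dex replicate 2, 673 without Dex replicate 3, and 89, 115 and 101 without EtOH replicates 1, 2 and 3. A set of 64 genes, 57 up and 7 down, was called with all 6 libraries and also without each of them in turn. The fit of the 6 Y551A-Dim libraries alone called 46 genes, 43 of them up.

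A group of classical GR targets rose to the same level in all 3 Dex libraries. Ccn2 (chromosome 10, 24595442 to 24598683), which encodes a secreted matricellular protein of the CCN family, stood at 5.84, 5.78 and 5.8 CPM in EtOH and at 34.5, 33.2 and 38.3 in Dex. This rise of 2.61 ± 0.063, or 6.09-fold, had the smallest adjusted p in Y551A-Dim (1.08e-20, edgeR), and the groups were far apart. Per1 (chromosome 11, 69095217 to 69109960), a repressor in the circadian clock, went from 4.01, 3.48 and 3.69 CPM to 7.92, 9.7 and 8.44, a rise of 1.22 ± 0.14. Orm3, an orosomucoid gene of the acute phase, stood at 3.47, 3.35 and 4.21 CPM in EtOH and at 9.29, 8 and 8.77 in Dex, a rise of 1.24 ± 0.11. None of these groups overlapped, which held for 138 of all 145 genes that rose. Dex replicate 1 was not the highest Dex library for Ccn2 or Per1.

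Adrenomedullin (Adm, a vasodilator peptide) rose by 1.08 ± 0.083, from 11.6, 12.3 and 13.4 CPM to 31.3, 25 and 22.9. Tsku, which encodes a secreted small leucine-rich proteoglycan, went from 29, 32 and 28.1 CPM to 70.4, 49.6 and 52, a rise of 0.95 ± 0.082. In both genes Dex replicate 1 was the highest library, but the lowest Dex library still lay well above the highest EtOH library. Tsc22d3 (GILZ, a leucine zipper protein that carries anti-inflammatory effects of glucocorticoids) stood at 27.5, 30.3 and 28.6 CPM in EtOH and at 48.3, 46.9 and 46.7 in Dex, a rise of 0.72 ± 0.052. Sgk1, a kinase that promotes sodium uptake, rose by 0.64 ± 0.037, from 125, 137 and 125 CPM to 206, 192 and 206. Errfi1, which restrains EGF receptor signalling, went from 23.2, 23.6 and 23 CPM to 38.9, 38 and 41.1, a rise of 0.76 ± 0.046. For these 3 genes the Dex libraries lay close together and far from EtOH.

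Further genes of this kind were the survival gene Bcl2l1 (0.66 ± 0.04, 56, 59.2 and 54.7 CPM in EtOH and 91.1, 87.3 and 90.6 in Dex), the lipase inhibitor Angptl4 (0.67 ± 0.056) and the glycan branching enzyme Gcnt2 (0.85 ± 0.11). All of the genes given so far as rising were called without each of the 6 libraries in turn. Lcn2, an iron-carrier binding protein of the acute phase, was counted 2, 0 and 2 times in EtOH and 23, 14 and 24 times in Dex. The groups did not overlap and it was called throughout, but at such counts its fitted change of 3.72 ± 0.66 is imprecise. Gm15889 and Depp1 had 0 counts in all EtOH libraries and between 6 and 12 in each Dex library, so no fold is given, and both lost their calls without any single EtOH library.

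**Figure D1:**
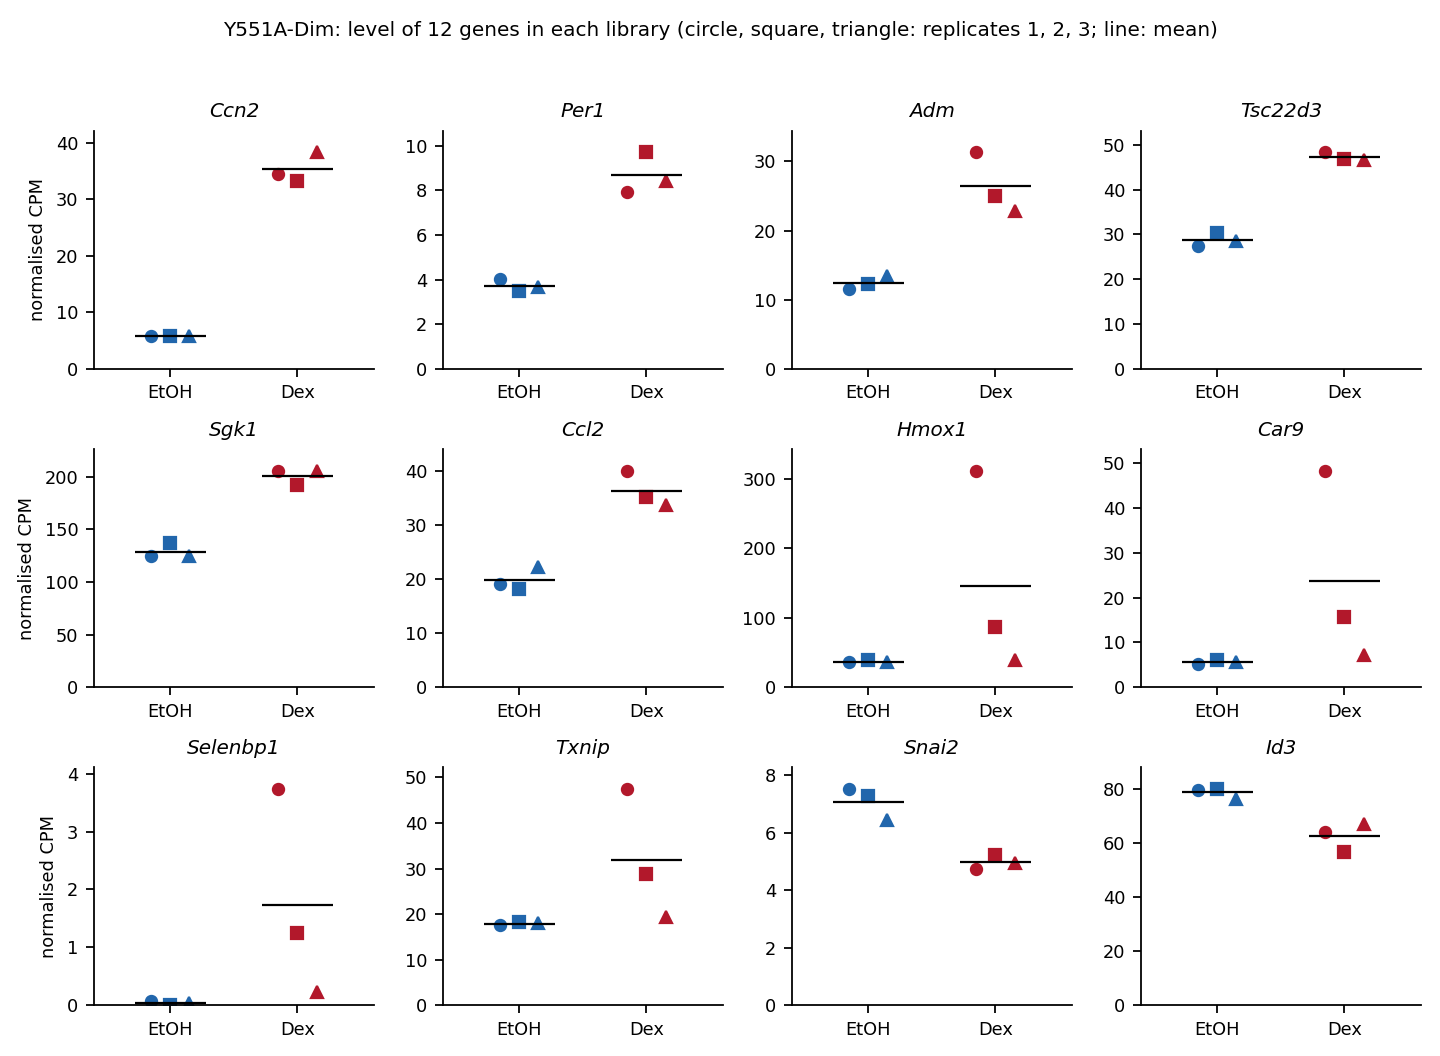
Normalised CPM (linear axes from 0) of 12 genes in the 6 Y551A-Dim libraries, EtOH in blue and Dex in red; circles, squares and triangles are replicates 1, 2 and 3 and the black line is the mean of 3. The Dex libraries lie together for Ccn2, Per1, Tsc22d3, Sgk1 and Ccl2, whereas Hmox1 spans 312, 86 and 38.8 CPM and Car9, Selenbp1 and Txnip fall in the same order of libraries, and Snai2 and Id3 are lower in Dex than in EtOH.

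The list of GR-induced genes was chosen with earlier results of these data known, so its counts in each line are a description. The median change of its 39 tested members was 0.28, against 0 over all genes tested. Of these members 17 rose, where 0.898% of all genes tested did, and 0 fell. Besides those above, they include Cdkn1a, which encodes an inhibitor of cyclin-dependent kinases (0.31 ± 0.059, not called without EtOH replicate 3), Per2 (0.32 ± 0.063), Tsc22d1 (0.43 ± 0.039), Tgm2 (0.16 ± 0.038), Ampd3 (0.32 ± 0.058) and Rhob (0.24 ± 0.055). Per2 was not called without EtOH replicate 1, and Tgm2 and Rhob not without Dex replicate 1, EtOH replicate 1 or EtOH replicate 3. Txnip, described below with the uneven genes, is the last of the 17. In WT 30 of the same 39 rose, with a median of 0.91, where 2% of all genes did, and in Y551A 29, with a median of 0.73, where 1.43% did. Within Y551A-Dim the median of the list over the EtOH mean was 0.33 in Dex replicate 1 and 0.21 in both Dex replicates 2 and 3, and 15 members were called up without Dex replicate 1.

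The promoter windows of the genes that rose were searched for the palindromic GR element, the site GR is known to bind. RefSeq windows of GRCm38.p6, from 250 bases before to 50 after a start site, were matched by symbol for 10147 of the 16140 genes tested, 107 of the 145 that rose and 21 of the 31 that fell. The pattern was AGAACA, 3 bases of any kind and TGTTCT, which reads the same on both strands, with up to 3 mismatches in its 12 defined letters. It occurred in 16.8% of the genes that rose (18 of 107), 14.3% of those that fell (3 of 21) and 10.8% of all genes tested (1096). A gene that rose had more windows on average (165 windows for 107 genes, against 12954 for 10147). Per window the shares were 12.7% for genes that rose, 20.7% for those that fell (29 windows) and 9.2% for all. An exact AGAACA, on either strand and whether or not inside the longer pattern, occurred in 17.8% of the genes that rose (19), 28.6% of those that fell (6) and 1522 of all 10147. Per window these shares were 15.8%, 27.6% and 12.8%, so both patterns were most frequent in the few windows of genes that fell. Among all 10147 genes only Sgk1 held the pattern without a mismatch, in 1 of its 6 windows. That sequence is shown with those of the 4 named genes of highest change that rose and had a match wholly before the start site, because they place the element beside its gene. Capitals mark the hexamers, and letters run in the direction of the gene. The Sgk1 window was chosen after its match had been seen.
Sgk1 (chr10:21993671-21993745, plus strand, 0 mismatches, within the span of the gene in GENCODE but in no exon): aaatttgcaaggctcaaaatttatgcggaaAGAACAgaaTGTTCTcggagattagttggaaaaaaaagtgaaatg
Tenm4 (chr7:96171018-96171092, plus strand, 2 mismatches, no annotated gene): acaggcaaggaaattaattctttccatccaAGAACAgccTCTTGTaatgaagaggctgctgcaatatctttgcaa
Txnip (chr3:96557754-96557828, plus strand, 3 mismatches, in an exon of the antisense gene Gm15441): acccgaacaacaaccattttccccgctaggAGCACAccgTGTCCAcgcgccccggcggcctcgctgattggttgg
Errfi1 (chr4:150854820-150854879, plus strand, 3 mismatches, within the span of the gene and in an exon of the antisense gene 1700045H11Rik): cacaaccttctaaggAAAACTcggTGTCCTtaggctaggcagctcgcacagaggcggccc
Lcn2 (chr2:32387850-32387924, minus strand, 3 mismatches, in a coding exon of another Lcn2 transcript): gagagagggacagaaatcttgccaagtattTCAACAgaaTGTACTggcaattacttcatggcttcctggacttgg
The ends of these elements lie 174, 181, 158, 220 and 140 bases before the RefSeq start sites of Sgk1, Tenm4, Txnip, Errfi1 and Lcn2. Sgk1 and Errfi1 rose evenly in the 3 Dex libraries, while Tenm4 and Txnip were highest in Dex replicate 1. Lcn2 was counted too rarely to judge how even its rise was. Ccn2, Ccl2, Ccl7 and Aldh3a1 had no entry in the table of windows.

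Many genes that responded in WT changed less in Y551A-Dim. The change of Y551A-Dim minus that of WT was called for 237 genes (1.47%), 143 lower and 94 higher, 141 of the 143 had risen in WT, out of 323 that did, and 57 of the 94 had fallen in WT, out of 226. Against Y551A 90 genes were called (0.558%), 74 lower and 16 higher, and without Y551A-Dim Dex replicate 3 they numbered 222. Of 323 genes that rose in WT, 59 also rose in Y551A-Dim, which is 18.3% of the WT list and 40.7% of the 145. Without EtOH replicate 3 they were 37. The median change of the 323 was 0.49 in WT and 0.12 in Y551A-Dim. Among the 72 genes that rose at least 2-fold in WT, 19 rose in Y551A-Dim, with medians of 2.04 and 0.36. Since the WT list was chosen for its changes in WT, its WT values are a description.

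Several strongly induced WT targets had no call at all in Y551A-Dim. Fkbp5 (chromosome 17, 28399094 to 28517527), a co-chaperone that restrains GR, stood at 75.1, 82.3 and 74.8 CPM in EtOH and at 69.9, 77.2 and 80.5 in Dex, and the groups overlapped. Its change was -0.03 ± 0.047 (edgeR adjusted p = 0.902), against 1.02 ± 0.046 in WT, a difference of -1.04 ± 0.066. Klf9, a Krüppel-like repressor, stood at 24.5, 26.2 and 24.2 CPM in EtOH and at 25.3, 25.3 and 27.4 in Dex (0.06 ± 0.049), with a difference of -1.18 ± 0.069 from WT. The MAP kinase phosphatase Dusp1 (0.10 ± 0.073, difference -0.86 ± 0.1) and glutamine synthetase, Glul (0.13 ± 0.05, difference -0.72 ± 0.071), were likewise not called.

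Spsb1, which encodes an adaptor of ubiquitin ligases, stood at 7.39, 8.01 and 6.35 CPM in EtOH and at 8.82, 9.2 and 8.5 in Dex. The groups did not overlap, yet its change of 0.28 ± 0.084 did not pass the test (edgeR adjusted p = 0.116), and it was 2.27 ± 0.11 below the change in WT. The fatty acid binding protein gene Fabp4 (0.49 ± 0.21, difference -2.55 ± 0.26) and S100a7a, of the S100 calcium-binding family (-0.62 ± 0.19, difference -3.11 ± 0.25), were also uncalled and had the largest differences from WT among the named GR targets. The 7 genes of these 2 groups also differed from Y551A by the same test. Metallothionein 1 (Mt1, a metal-binding protein) stood at 22.9, 23.6 and 24 CPM in EtOH and at 43.5, 24.1 and 24 in Dex. Only Dex replicate 1 was raised, and the change of 0.38 ± 0.13 was not called (edgeR adjusted p = 0.186). Mt2 and Zbtb16 had 0 counts in all 6 libraries.

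The targets that did rise fell into different classes of reduction. Ccn2 rose by 1.99 ± 0.086 less than in WT (4.59) and 1.87 ± 0.089 less than in Y551A (4.48), Per1 by 1.84 ± 0.19 and 1.61 ± 0.19 less, Sgk1 by 1.77 ± 0.052 and 1.25 ± 0.052 less, and Tsc22d3 by 1.69 ± 0.072 and 1.27 ± 0.072 less. Tsku (-1.21 ± 0.11 against WT), Orm3 (-1.3 ± 0.16), Errfi1 (-0.73 ± 0.064) and Bcl2l1 (-0.68 ± 0.055) were reduced as well, and so, from larger WT changes, were the small GTPase gene Arl4d (0.46 in Y551A-Dim, 2.1 in WT) and Ampd3, an AMP deaminase (0.32 and 1.64). Each of these differences was called by edgeR against both lines.

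Other genes rose by amounts that could not be separated from those in WT. Adm changed by 1.08 in Y551A-Dim and 0.9 in WT, a difference of 0.18 ± 0.11 (edgeR adjusted p = 0.692). Trim24, a nuclear receptor coregulator, stood at 40.7, 41 and 39 CPM in EtOH and at 56.1, 60.6 and 56.1 in Dex, a rise of 0.52 ± 0.041 that differed from WT by -0.05 ± 0.058. Cnksr3, a scaffold for sodium channel regulation (0.56 ± 0.074, difference 0.01 ± 0.1), the transcription factor Sox9 (0.53 ± 0.08, difference -0.05 ± 0.11), the copper ferroxidase ceruloplasmin, Cp (0.5 ± 0.049, difference 0.09 ± 0.068), and Gcnt2 (difference 0.32 ± 0.17) belonged to the same class. The SE of these differences bounds how alike the responses can be said to be, most closely for Trim24 and most loosely for Gcnt2. For 41 of the 145 genes that rose, both WT and Y551A showed a called rise.

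**Figure D2:**
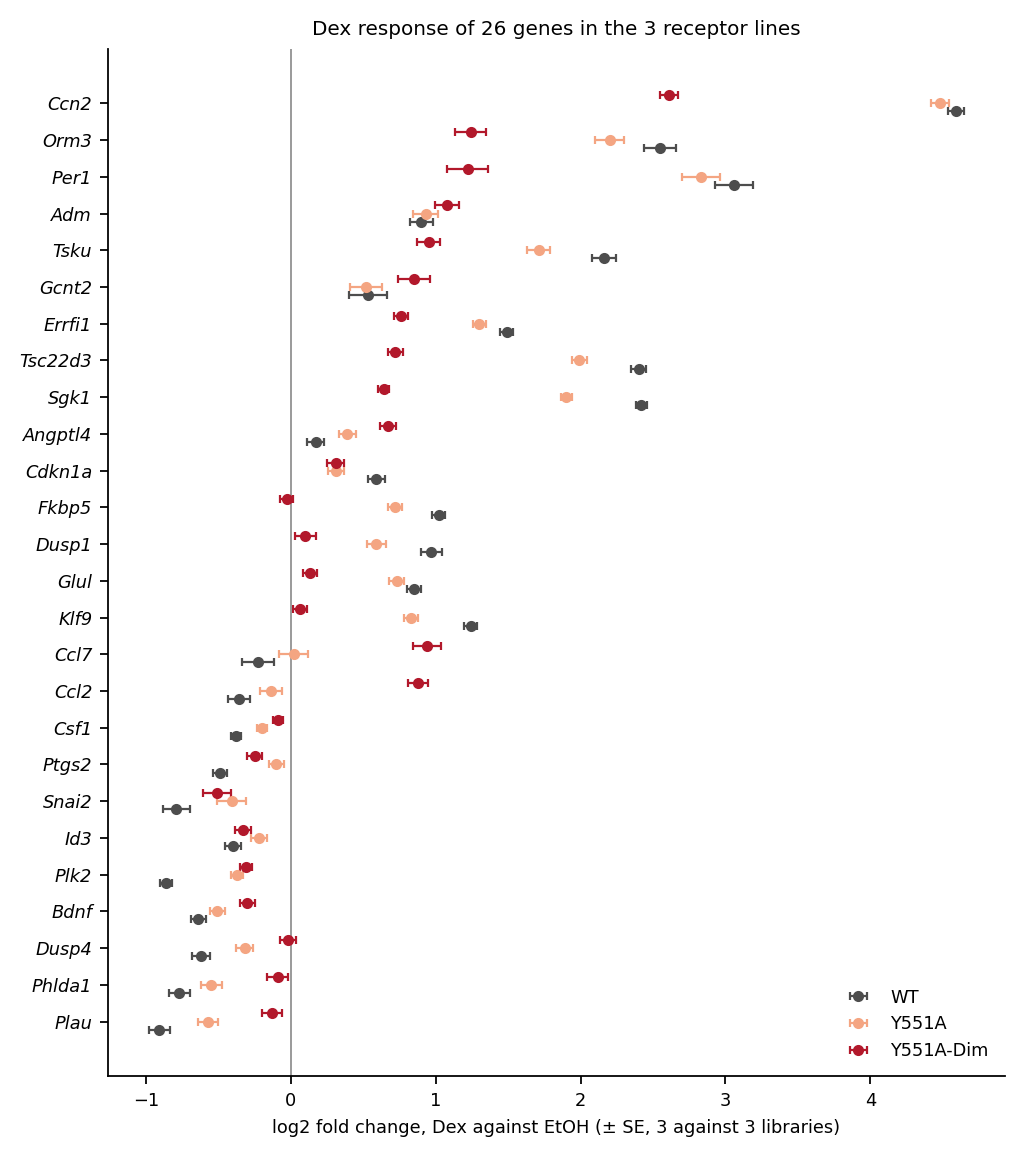
Log2 fold change of Dex over EtOH with its SE (3 against 3 libraries) for 26 genes in WT (dark grey), Y551A (light orange) and Y551A-Dim (red). The red points lie left of the others for Ccn2, Per1, Tsc22d3 and Sgk1 and at 0 within their error for Fkbp5 and Dusp4, overlap them for Adm, and lie right of 0 for Ccl2 and Ccl7, where WT is at -0.36 and -0.23.

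The chemokine genes Ccl2 and Ccl7 rose in Y551A-Dim, and Ccl2 fell in WT. Ccl2 (chromosome 11, 82035571 to 82037453), which encodes the monocyte attractant MCP-1, stood at 19.1, 18.1 and 22.1 CPM in EtOH and at 40, 35.1 and 33.7 in Dex. It rose by 0.88 ± 0.069 in Y551A-Dim (edgeR adjusted p = 4.67e-09), fell by 0.36 on the log2 scale in WT (adjusted p = 0.00363) and changed by -0.14 in Y551A without a call. In WT its values were 14.4, 13.7 and 13.8 CPM in EtOH and 10.8, 10.6 and 11.2 in Dex. Ccl7 (chromosome 11, 82045712 to 82047525), which encodes the related chemokine MCP-3, stood at 22.5, 19.9 and 24.7 CPM in EtOH and at 52.1, 40.2 and 36.5 in Dex, a rise of 0.94 ± 0.096, while its changes of -0.23 in WT and 0.02 in Y551A were not called. Neither pair of groups overlapped, and Dex replicate 1 was the highest library for both. The differences from WT were 1.24 ± 0.1 for Ccl2 and 1.17 ± 0.15 for Ccl7, and from Y551A 1.01 ± 0.1 and 0.92 ± 0.14. All 4 differences and both rises were called without each library in turn.

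Of 20 tested chemokine, cytokine and NF-kB genes 2 rose, which are Ccl2 and Ccl7, and 1 fell, with a median of 0.01. Over all genes tested 0.898% rose and 0.192% fell. In WT 1 of the 20 rose and 7 fell, where 2% and 1.4% of all genes did. For 5 of the 20 the change in Y551A-Dim was higher than in WT by a called difference, as for 94 of all 16140 genes tested. Cxcl1, a neutrophil attractant (0.25 ± 0.13), and Csf1, a macrophage growth factor (-0.09 ± 0.036), were not called, while Ptgs2, the inducible cyclooxygenase, fell by 0.25 on the log2 scale (from 83.6, 77.5 and 76.8 CPM to 73.8, 63.4 and 63.2). Ptgs2 was not called without EtOH replicate 1. Il6 was counted too rarely to be tested.

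A further set rose in Y551A-Dim with no called rise in WT, and each of its differences from WT was called. Osr1, a zinc finger factor, rose by 0.68 ± 0.079 (from 10.9, 10.8 and 8.6 CPM to 17.1, 14.8 and 16.9), against 0.14 in WT and 0.42 in Y551A. Tnfrsf1b, a receptor for tumour necrosis factor, went from 63.5, 61.2 and 57.2 CPM to 83.7, 79.2 and 82.3, a rise of 0.43 ± 0.044 against 0.04 in WT and 0.4 in Y551A. Angptl4 rose by 0.67, which was 0.51 ± 0.08 more than in WT and 0.29 ± 0.08 more than in Y551A, the latter not called. Tcim (0.45 ± 0.068), the cytokine-signalling inhibitor Socs3 (0.35 ± 0.051, 34, 32.8 and 31.5 CPM in EtOH and 41.7, 39.2 and 44.1 in Dex), the alarmin Il33 (0.55 ± 0.085) and the neurotrophic factor Gdnf (0.31 ± 0.065) also differed from Y551A by a called amount.

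These differences were not equally stable. Gdnf, which had fallen in WT (-0.32), was not called in Y551A-Dim without Dex replicate 1, EtOH replicate 1 or EtOH replicate 3. The difference of Il33 from WT lost its call without 6 single libraries of the 12 involved, Y551A-Dim Dex replicate 1 among them, and that of Socs3 from Y551A without 4. Those of Osr1, Tnfrsf1b, Tcim and Angptl4 from WT kept theirs. A total of 75 of the 145 genes rose in Y551A-Dim with no call in either other line, and 22 of these 75 were called without Dex replicate 1. Of the 41 that rose in all 3 lines 31 were.

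Repression was small in size. The lowest change was that of Snai2, which encodes the transcriptional repressor Slug. It stood at 7.53, 7.27 and 6.46 CPM in EtOH and at 4.73, 5.23 and 4.95 in Dex, and fell by 0.51 on the log2 scale (SE 0.098). Plk2, a polo-like kinase, went from 147, 157 and 153 CPM to 115, 124 and 132 (-0.31 ± 0.042), and Id3, an inhibitor of differentiation factors, from 79.7, 80 and 76.2 to 64, 56.6 and 66.9 (-0.33 ± 0.055). The neurotrophin gene Bdnf (-0.3 ± 0.052), the phosphatidate phosphatase gene Lpin1 (-0.29 ± 0.052), the sterol synthesis gene Hmgcs1 (-0.26 ± 0.049) and Socs5 (-0.21 ± 0.032) fell too. These 7 are the genes that fell with all 6 libraries and without each in turn. None of their groups overlapped, which held for 29 of all 31 genes that fell.

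The falls of Ier5l (-0.46, not called without EtOH replicate 2), the activin subunit gene Inhba (-0.27) and the glutathione-degrading enzyme gene Chac1 (-0.25) rested on single libraries, and Inhba and Chac1 were not called without Dex replicate 1 or EtOH replicate 1. The dioxin receptor gene Ahr (-0.26), the non-coding gene Lncppara (-0.37) and Arhgef39 (-0.32) lost their calls without 4, 2 and 5 of the libraries, Dex replicate 1 among them each time. Of 226 genes that fell in WT 18 fell in Y551A-Dim, which is 7.96% of the WT list and 58.1% of the 31, and 2, Ccl2 and Gdnf, rose. The 18 were 11 without Dex replicate 1 and 10 without EtOH replicate 1. The WT-repressed genes Plau, a plasminogen activator (15.6, 14.8 and 15.5 CPM in EtOH, 13.8, 13.6 and 14.4 in Dex), Phlda1, the phosphatase Dusp4 and the early response gene Ier3 had changes of -0.13, -0.09, -0.02 and 0.13 with no call. Their differences from WT, 0.78 ± 0.1, 0.69 ± 0.1, 0.6 ± 0.084 and 0.69 ± 0.089, were all called. Plk2 fell by 0.55 ± 0.059 less than in WT, whereas the differences of Snai2 (0.28 ± 0.14) and Id3 (0.07 ± 0.078) were not called.

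The remaining lists held few called genes. Over all genes tested 0.898% rose and 0.192% fell in Y551A-Dim, and 2% rose and 1.4% fell in WT. In lists of this size a single called gene already exceeds the Y551A-Dim shares, so counts of 1 or 2 are given as a description from which nothing is read. Of 22 tested growth factor and MAP kinase feedback genes 1 rose, Socs3, and 0 fell, while 11 fell in WT. For 9 of the 22 the change in Y551A-Dim was higher than in WT by a called difference, as for 94 of all 16140 genes tested. Of 25 immediate early and AP-1 genes 1 rose (Btg2) and 1 fell (Klf10), neither of them called without Dex replicate 1, and 9 fell in WT. Of 20 circadian clock genes 4 rose, among them Per1, Per2 and Bhlhe40, with a median of -0.01. Bhlhe40 (0.19 ± 0.046) was not called without Dex replicate 1, and 2 of the 4 were. In the lists of YAP targets (22 tested) and of p53 and growth arrest genes (20) 1 rose and 1 fell, and 0 rose and 2 fell, Plk2 and Btg1. Id3 and Inhba were the 2 genes that fell, and 0 rose, of 18 BMP and TGF-beta feedback genes. Chac1 was the 1 called of 21 integrated stress response genes, and Nr3c1 that of 20 GR, chaperone and cofactor genes. Of 16 heat shock genes edgeR called 0, with 3 at an unadjusted p below 0.05 and 1 called by DESeq2. Of 14 structural non-coding RNA genes edgeR called 0, with 2 at an unadjusted p below 0.05 and 0 called by DESeq2. Among all 16140 genes tested 1774 had an unadjusted p below 0.05.

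One library, Dex replicate 1, stood apart within its group, and a second set of genes was high there above all. It was the highest of the 3 Dex libraries for 112 of the 145 genes that rose (77.2%), against 33.5% of all genes tested, and the lowest for 22 of the 31 that fell (71.0%), against 33.9%. These genes were called with that library included, so its place among them is a description. Without it 71 of the 145 genes and 12 of the 31 remained called, but the losses were of like size without EtOH replicate 1 (77 and 12 remained), 2 (86 and 16) or 3 (74 and 20). In the genes that rose, the 3 Dex libraries spanned a median of 0.234 on the log2 scale and the 3 EtOH libraries 0.122. The share of reads from mitochondrially encoded genes was 3.26, 2.602 and 2.152% in Dex and 2.307, 2.039 and 2.539% in EtOH. In Y551A it was 2.35, 1.835 and 1.852% in Dex and 2.177, 2.439 and 2.17% in EtOH. The part of this share in the results below was not tested.

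Hmox1 (chromosome 8, 75093621 to 75100589), the haem oxygenase induced by oxidative stress, stood at 35.5, 38.9 and 35.4 CPM in EtOH and at 312, 86 and 38.8 in Dex. Dex replicate 1 was far above the rest, Dex replicate 2 was raised, and Dex replicate 3 lay inside the EtOH range. The fitted change was 1.99 ± 0.37, 0.76 without Dex replicate 1, and in the fit of the 6 libraries alone it was not called (edgeR adjusted p = 0.203). Car9 (chromosome 4, 43506966 to 43513729), a carbonic anhydrase induced by low oxygen, ran in the same order at 48.4, 15.7 and 7.15 CPM, above 5.17, 6.11 and 5.69 in EtOH. Its change of 2.06 ± 0.36 became 1.0 without Dex replicate 1 and was not called in the 6 libraries alone (edgeR adjusted p = 0.147). The WT and Y551A libraries showed no such spread: Hmox1 lay between 22.4 and 27.9 CPM in WT and between 35.1 and 44.4 in Y551A, and Car9 between 4.38 and 5.33 and between 6.48 and 7.43.

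The same order of Dex libraries, highest in replicate 1 and lowest in replicate 3, was seen in Selenbp1, a methanethiol oxidase. It was counted 4, 0 and 2 times in EtOH and 215, 64 and 16 times in Dex. Its change, 5.51 ± 0.82 in the fit, was called without each library but rests on few EtOH counts. Txnip, an inhibitor of thioredoxin, stood at 17.6, 18.2 and 18 CPM in EtOH and at 47.5, 28.8 and 19.4 in Dex, a rise of 0.82 ± 0.16 that became 0.42 without Dex replicate 1. Aldh3a1, an aldehyde dehydrogenase, stood at 36.1, 36.8 and 35.9 CPM in EtOH and at 105, 47 and 40.7 in Dex. Its rise of 0.82 ± 0.18 became 0.27 without Dex replicate 1 and was not called without any single EtOH library.

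Tenm4, a teneurin adhesion gene, went from 2.58, 2.32 and 2.08 CPM to 8.37, 3 and 3.01, and complement C3 from 4.53, 3.95 and 3.51 to 10.9, 5.71 and 5.52. Only Dex replicate 1 stood well clear of EtOH in either. Without it the change of Tenm4 became 0.37 instead of 1.04 and that of C3 0.49 instead of 0.88, and neither was called. The protease inhibitor Serpina3n (7.73, 3.02 and 1.85 CPM in Dex, 1.57, 2.14 and 1.16 in EtOH), Bnip3, a mitophagy receptor (200, 116 and 101 in Dex, 95, 94.7 and 98.5 in EtOH), and Slpi, a secreted protease inhibitor (108, 71.5 and 65.4 in Dex, 59.4, 53.6 and 59.5 in EtOH) also lost their calls without Dex replicate 1. Against WT the changes of Hmox1 (2.16 ± 0.54), C3 (1.12 ± 0.27), Txnip (1.12 ± 0.23) and Selenbp1 (4.66 ± 1.1) were called higher. Those of Hmox1, C3 and Selenbp1 lost that call without 9, 8 and 5 of the 12 libraries in turn, Y551A-Dim Dex replicate 1 among them for C3 and Selenbp1, every WT and Y551A-Dim EtOH library among them for Hmox1, and that of Car9 (2.01 ± 0.53, edgeR adjusted p = 0.0572) did not pass.

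**Figure D3:**
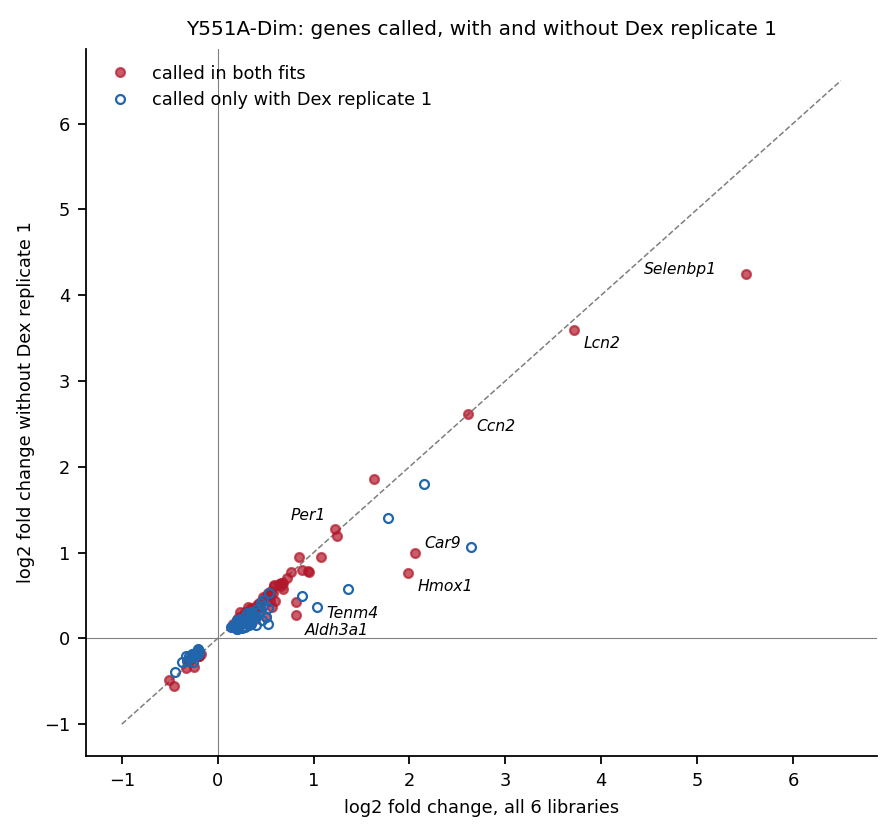
Log2 fold change of the called genes fitted with all 6 Y551A-Dim libraries (x axis) and without Dex replicate 1 (y axis); filled red points are called in both fits, open blue points only with Dex replicate 1, and the dashed line is equality. The 3 genes with 0 counts in all EtOH libraries are not drawn, so 173 remain; Ccn2 lies on the line and Per1 just above it, and Hmox1, Car9 and Tenm4 lie well under it at 0.76, 1.0 and 0.37.

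Whole gene lists moved with that library. Of 40 tested hypoxia targets 31 were highest of all 6 libraries in Dex replicate 1 (22.6% of all genes tested were), and 6 rose: Car9, Adm, Angptl4, the growth arrest gene Ndrg1 (0.5 ± 0.1), Bnip3 and the angiogenic factor Vegfa (0.26 ± 0.055). The median of the list over the EtOH mean was 0.24, 0.05 and 0.05 in the 3 Dex libraries and between -0.02 and 0.03 in EtOH. Adm and Angptl4 are also members of the GR-induced list and were called without each library in turn. Without Dex replicate 1, 4 of the 40 were called, Adm and Angptl4 among them. Of 35 NRF2 antioxidant targets 28 were highest in Dex replicate 1, with medians of 0.19, -0.03 and 0.02. Of these Hmox1 and Gsta4 (0.2 ± 0.049) rose, and 1 was called without that library. The glutathione synthesis gene Gclm stood at 106, 68 and 63.8 CPM in Dex and at 65, 66.6 and 65.8 in EtOH, and Nqo1, a quinone reductase, at 167, 117 and 121 against 116, 119 and 114. Only Dex replicate 1 was raised in both, and neither was called.

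The 14 tested mitochondrially encoded genes showed the order of Hmox1. Their medians were 0.51, 0.19 and -0.06 in Dex, but 0, -0.14 and 0.13 in EtOH. In the Dex libraries of Y551A they were 0.26, -0.27 and -0.28, also highest in replicate 1, and in those of WT 0.11, 0 and 0.1. In Y551A-Dim edgeR called 0 with all libraries and 0 without Dex replicate 1. At an unadjusted p below 0.05 they were 2 and 0, where 1774 of 16140 and 925 of 16531 genes tested were, and DESeq2 called 0. mt-Co1, a cytochrome oxidase subunit, stood at 7562, 5595 and 5088 CPM in Dex and at 4811, 4825 and 5351 in EtOH, so that Dex replicate 3 lay inside the EtOH range.

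Cholesterol synthesis genes, a list chosen after values had been seen, ran in the opposite order. Of 26 tested 0 rose and 5 fell (Hmgcs1, Insig1, Pmvk, Aacs and Lpin1), where 0.192% of all genes tested fell. The medians were -0.32, -0.14 and -0.05 in Dex and between -0.04 and 0.05 in EtOH. In WT 3 of the 26 fell, where 1.4% of all genes did, with medians of -0.07, -0.06 and -0.07 in Dex. In Y551A 0 fell, with Dex medians of -0.04, -0.01 and 0. Hmgcs1 stood at 1244, 1322 and 1224 CPM in EtOH and at 935, 1073 and 1153 in Dex. Every Dex library was below every EtOH library, lowest in replicate 1. Without Dex replicate 1 the 5 were 2, Hmgcs1 and Lpin1. Insig1 (-0.3 ± 0.061) and Pmvk, phosphomevalonate kinase (-0.27 ± 0.054), lost their calls. Not all of the 5 are enzymes of sterol synthesis: Insig1 restrains it and Lpin1 encodes a phosphatidate phosphatase. Of 32 cell cycle genes edgeR called 0 with all libraries and 0 without that one, and DESeq2 called 3. At an unadjusted p below 0.05 they were 22 and 6, where 1774 of 16140 and 925 of 16531 genes tested were. The medians of the cell cycle list were -0.24, -0.13 and 0 in Dex and between -0.04 and 0.05 in EtOH. Mki67, a proliferation marker, stood at 842, 1026 and 1058 CPM in Dex and at 1139, 1149 and 1095 in EtOH (edgeR adjusted p = 0.0589).

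**Figure D4:**
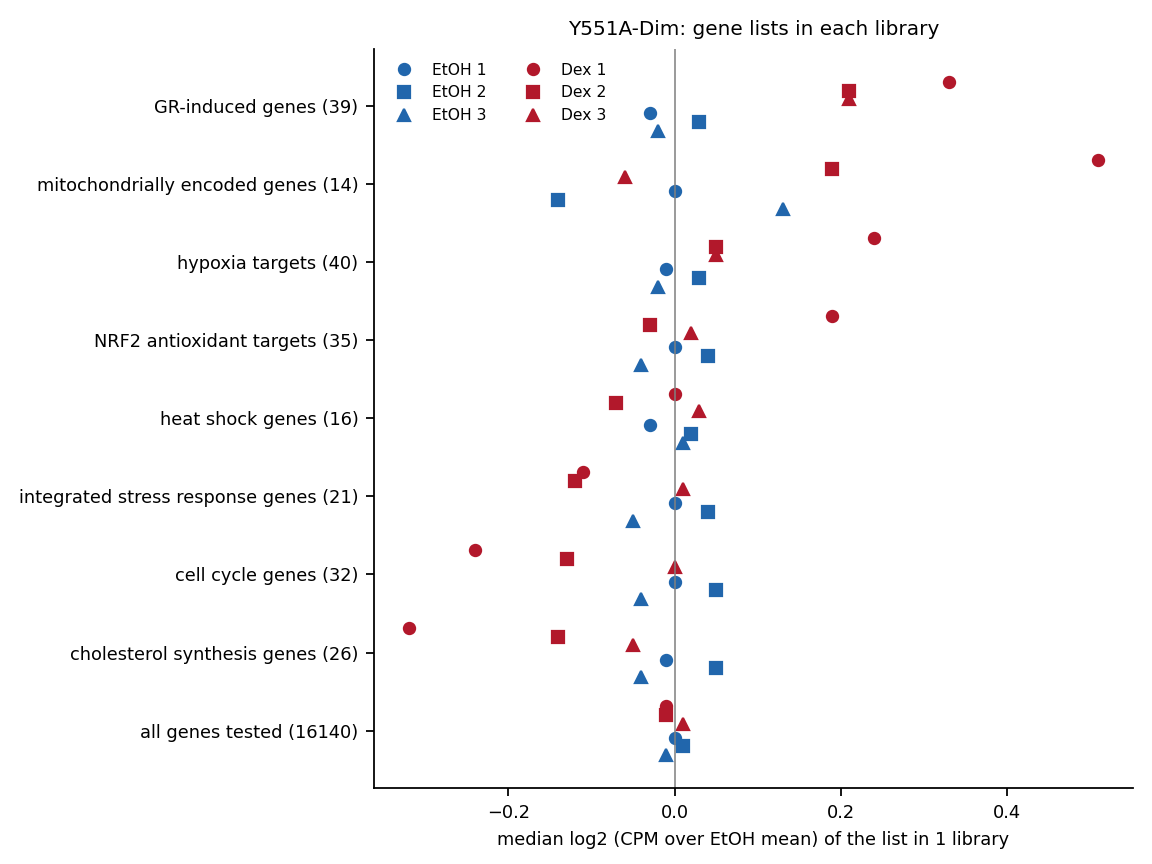
Median log2 ratio of a list's genes to their EtOH mean (x axis) in each of the 6 Y551A-Dim libraries, Dex in red and EtOH in blue, with circles, squares and triangles for replicates 1, 2 and 3 and the number of tested genes in brackets. GR-induced genes are raised in all 3 Dex libraries (0.33, 0.21 and 0.21), whereas hypoxia, NRF2 and mitochondrially encoded genes are raised mainly, and cholesterol synthesis and cell cycle genes lowered most, in Dex replicate 1.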

How the data were processed

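The authors' deposited files hold raw read counts per gene for each library. Per the file headers, featureCounts 2.0.3 counted reads over exons by gene name, reversely stranded and paired, with GENCODE M21. Per the submitters' processing notes the build was mm10 and bcl2fastq 2.17, cutadapt and STAR were used. The labels describe 2 stranded ribosome-depletion kits used in 2 batches and do not assign libraries to them, and 100 bp paired reads.

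Here 16140 of 55341 genes passed edgeR's filterByExpr. TMM-normalised counts of 18 libraries (WT, Y551A and Y551A-Dim) were fitted by edgeR 4.0.16 in R 4.3.3 with 1 mean per group. The fit had 12 residual degrees of freedom and a biological coefficient of variation of 5.13%. The procedure was first run on counts simulated for 6 libraries of equal spread, which does not check the pooled fit of uneven libraries. Tests were two-sided. DESeq2 1.42.0, RLE factors, other filters, a replicate block, a 1.5-fold minimum, the compared groups alone and leaving out each library were alternatives. Replicate libraries differed beyond sampling noise. The other 16 libraries were not used. Floors and counts cover counting error only. Reads shared by near-identical genes were not counted.

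Named genes are the 14 highest and 14 lowest called genes with at least 1 CPM and no overlap, plus fixed lists and called list members. The members and lists were chosen with earlier results of these data known. Lists were based on textbook sets, and cholesterol synthesis was added after values were seen. The other genes given were likewise chosen after their values were seen. Some members of the lists are not reported here.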

Additional observations from a re-analysis of the deposited data

Results flagged for a closer look

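The Dex response of Y551A-Dim differed from that of another line, by edgeR's quasi-likelihood test of the difference itself, in the following named genes. Each value is the log2 change in Y551A-Dim minus that in the other line.

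Induced targets were lower than in both lines. The differences from WT and from Y551A were -1.99 and -1.87 for Ccn2, -1.3 and -0.96 for Orm3, -1.84 and -1.61 for Per1, -1.21 and -0.76 for Tsku, -1.69 and -1.27 for Tsc22d3, -1.77 and -1.25 for Sgk1, and -0.73 and -0.55 for Errfi1. For genes not called in Y551A-Dim they were -1.04 and -0.75 for Fkbp5, -0.86 and -0.48 for Dusp1, -0.72 and -0.61 for Glul, -1.18 and -0.77 for Klf9, -2.55 and -2.87 for Fabp4, -2.27 and -1.61 for Spsb1, and -3.11 and -2.95 for S100a7a. Against WT alone Mt1 was lower by -0.89, and the inhibitors of differentiation Id1 and Id2 by -0.71 and -0.32.

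Higher than in both WT and Y551A were Ccl7 (1.17 and 0.92), Ccl2 (1.24 and 1.01), Txnip (1.12 and 1.07), Selenbp1 (4.66 and 7.87), and, among genes that fell in WT, Plau (0.78 and 0.44), Phlda1 (0.69 and 0.46) and Ier3 (0.69 and 0.58). The differences from Y551A of Txnip, Selenbp1, Phlda1 and Plau lost their calls without 7, 5, 8 and 4 of the 12 libraries in turn, and that of Selenbp1 from WT without 5. Against WT alone C3 (1.12), Hmox1 (2.16), Plk2 (0.55), Bdnf (0.35), Ahr (0.34), Nr3c1 (0.26), Angptl4 (0.51), Csf1 (0.29), Dusp4 (0.6) and Myc (0.37) were higher. Of these C3, Hmox1 and Ahr lost that call without 8, 9 and 8 libraries.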

How the results depend on the processing

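The 176 genes called in Y551A-Dim became 316 with DESeq2 (239 up, 77 down), 491 without a filter on low counts (320 up, 171 down), 46 in the fit of the 6 libraries alone (43 up, 3 down) and 35 at a minimum of 1.5-fold. The last counts fewer genes by construction, and otherwise the cause was not tested. Leaving out 1 library gave 87 to 673, RLE factors 205 and a mean of at least 1 CPM 192. Of the 176, DESeq2 shared 165. Against WT the 237 differences became 422 without the filter and 91 at 1.5-fold, and 194 to 335 without 1 library. Against Y551A the 90 became 139 with DESeq2, 250 without the filter, 40 at 1.5-fold, and 69 to 222 without 1 library. Genes that rose in WT and in Y551A-Dim (59) numbered 37 to 72 without 1 library, and those that fell in both (18) 10 to 26.

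With a replicate block the counts were 125, 192 and 74. Same-numbered libraries of Y551A-Dim deviated from their group means with correlations of -0.113, -0.355 and -0.082, and differently numbered ones with -0.157 to 0.242. Deviations from a mean of 3 libraries are tied to each other, so these values do not settle whether the numbers pair libraries. Of up to 196 named or called genes, 0 changed sign under the alternatives run. DESeq2 ended the call of 3, RLE factors of 1, the replicate block of 55, the 6 libraries alone of 127, and leaving out Dex replicates 1, 2 and 3 of 93, 20 and 4, and EtOH replicates 1, 2 and 3 of 87, 74 and 82. These counts cover only the genes compared in a setting, 187 with DESeq2 and 192 in the 6 libraries alone. Counted over all 176 calls, DESeq2 kept 165 and the 6 libraries alone 45. At 3 libraries a group, changes of the size of the SE are not detectable, and at under about 1 CPM the counts limit the precision.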
